A study of Mus musculus and Homo sapiens with 41 samples.

Results

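The 38 HOX genes described here lie in 4 clusters, with 10 in Hoxa, 10 in Hoxb, 9 in Hoxc and 9 in Hoxd, and they were taken by name from a fixed list. They are 38 of the 21911 mouse protein-coding genes that were given a window of 5 kb to each side of the annotated start, and their upper-case symbols are 38 of 20007 such genes in human. In the mm10 build the clusters run from the first to the last listed gene at chr6:52162417-52260880 (Hoxa, 98.5 kb), chr11:96194316-96368256 (Hoxb, 173.9 kb), chr15:102921103-103036852 (Hoxc, 115.8 kb) and chr2:74668310-74765142 (Hoxd, 96.8 kb), together 485 kb.

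HOX genes encode homeodomain transcription factors that give cells their position along the body axis, low-numbered genes towards the head and high-numbered genes towards the tail and the limb tips. In embryonic stem cells the clusters are the textbook example of chromatin held silent by Polycomb. The complex PRC1 adds a single ubiquitin to a lysine of histone H2A (the mark H2AK119ub) and the deubiquitinase BAP1 removes it. In blood, HOX genes such as HOXA9, HOXA10 and HOXB4 are active in stem and progenitor cells, where they sustain self-renewal, and are turned off as cells mature.

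H2AK119ub was mapped by CUT&Tag, in which an antibody directs a transposase to cut and tag the DNA around the mark, in 39 libraries of 13 groups with 3 replicates each, and BAP1 was mapped in 2 libraries of mouse embryonic stem cells (mESCs) that were wild type (WT). The mESC groups were WT and Tet2-/- knockout (KO) cells without transfection, WT and KO cells given a control siRNA (siNC), and KO cells given an siRNA against Mbd6 or Nsun2, all grown with LIF, CHIR99021 (3 µM) and PD0325901 (1 µM). The blood groups were haematopoietic stem and progenitor cells (HSPCs), selected as Lin- c-Kit+ marrow cells from C57BL/6 mice of 6 to 8 weeks and both sexes, cultured for 7 days, WT or Tet2-/- with a control shRNA (shNC) or Tet2-/- with an shRNA against Mbd6. The human groups were K-562, an established erythroleukaemia line, WT or TET2-/- with siNC and TET2-/- with an siRNA against MBD6 or NSUN2. The mESC and K-562 knockouts came from other laboratories, and whether each is 1 clone is not given in the sources used here. MBD6 is a methyl-CpG-binding-domain protein that associates with the BAP1 complex, and NSUN2 is a methyltransferase that makes 5-methylcytosine in RNA.

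The deposited files list called peaks, so each value below is a length of sequence covered by peaks in 1 library (in kb), and sequencing depth is unknown. The 9 untransfected and WT siNC mESC libraries held 24360 to 37392 peaks, the 9 siRNA-treated KO mESC libraries 4251 to 12139, the HSPC libraries 1398 to 8286 and the K-562 libraries 1919 to 4575. In each mESC group replicate 1 held the fewest peaks. A value of 0 can mean no mark or too few reads to call a peak, and fewer cells with the mark cannot be told apart from less mark per cell. The lists do not measure Tet2, Mbd6 or Nsun2 RNA, and markers of mESCs, HSPCs and K-562 cells were covered in part of the libraries of every cell type (for the 5 mESC markers, 2 to 4 in the WT mESC libraries and 0 to 1 in WT HSPCs), so the cell labels could not be checked from a repressive mark.

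The listed peaks in the HOX clusters lay in short stretches that recurred between libraries. The bases below are shown because they are the part of each cluster that the most libraries shared, outside untranslated exons, together with the stretch that the most HSPC libraries shared and the one that the most K-562 libraries shared. In Hoxd it was coding sequence of an exon of Hoxd12 (chr2:74675450-74675649, covered in 18 of 18 mESC libraries), in Hoxb an intron of Hoxb6 (chr11:96294741-96294896, 18 of 18), in Hoxc an intron of Hoxc11 (chr15:102956039-102956192, 17 of 18) and in Hoxa the boundary of a coding exon and intron of Hoxa3 (chr6:52170672-52170858, 14 of 18). The HSPC stretch was coding sequence of Hoxb1 (chr11:96365865-96366064, 5 of 9 HSPC libraries), and the K-562 stretch was an intron shared by HOXC4 and HOXC6 (hg38 chr12:54017939-54018042, 9 of 12 libraries). A HOXB stretch, between genes, was covered in 4 of the 12 and is not printed. Each is the + strand of the genome (mm10, or hg38 for K-562), with CpG dinucleotides in capitals. Stretches over 200 bases are shown by their middle 200.
Hoxd12: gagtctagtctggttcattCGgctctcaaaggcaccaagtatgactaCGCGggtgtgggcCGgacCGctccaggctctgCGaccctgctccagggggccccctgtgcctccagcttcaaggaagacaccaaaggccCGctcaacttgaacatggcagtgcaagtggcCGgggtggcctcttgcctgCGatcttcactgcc
Hoxb6: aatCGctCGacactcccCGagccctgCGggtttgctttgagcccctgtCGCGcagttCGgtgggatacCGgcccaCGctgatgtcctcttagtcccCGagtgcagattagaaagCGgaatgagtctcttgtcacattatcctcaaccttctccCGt
Hoxc11: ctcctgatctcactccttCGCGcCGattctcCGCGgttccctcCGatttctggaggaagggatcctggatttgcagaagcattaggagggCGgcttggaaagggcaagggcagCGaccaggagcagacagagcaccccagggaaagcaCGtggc
Hoxa3: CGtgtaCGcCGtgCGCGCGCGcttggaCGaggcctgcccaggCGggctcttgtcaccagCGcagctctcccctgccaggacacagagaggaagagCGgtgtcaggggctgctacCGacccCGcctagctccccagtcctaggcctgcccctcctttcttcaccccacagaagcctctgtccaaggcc
Hoxb1: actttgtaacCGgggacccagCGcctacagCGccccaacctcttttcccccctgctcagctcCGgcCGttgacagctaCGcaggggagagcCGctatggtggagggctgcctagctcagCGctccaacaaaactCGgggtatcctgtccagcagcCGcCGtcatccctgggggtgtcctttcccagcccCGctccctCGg
HOXC4 and HOXC6: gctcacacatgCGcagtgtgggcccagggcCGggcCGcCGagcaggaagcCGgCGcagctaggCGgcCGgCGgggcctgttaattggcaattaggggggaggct

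The capitals mark what these stretches share. The 6 held between 9 and 13 CpG each, or 45 to 86.5 CpG per kb, and their GC content was 57.1 to 71.2%. Over the 485 kb of the mouse clusters, bases covered in at least 2 of 3 libraries of a group held 43.7 to 53.7 CpG per kb in the 6 mESC groups, and bases outside every peak of the group held 22.2 to 23.8. Coding exons made up 19.8 to 41.8% of the covered bases against 6.23 to 6.70% of the others, and repeat-masked sequence 2.62 to 6.35% against 18.6 to 19.2%. The 22 HOX promoters matched in the RefSeq table (250 bases before to 50 after the start) held a median of 13.5 CpG against 7 over all 27025 promoters. These are descriptions of 1 set of bases, which the libraries share, and carry no test.

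In WT mESCs nearly all HOX genes had listed peaks in their windows, and the peaks were short. In untransfected WT cells 33 of 38 HOX windows (86.8%) were covered in at least 2 of 3 libraries against 55.7% of all windows, and 24 of 38 were covered in all 6 WT mESC libraries of both experiments. The 4 clusters together held 40 to 59 peaks per WT library, with a median peak length of 0.324 to 0.415 kb and no peak longer than 1.61 kb. Over all peaks of the same libraries the median length was 0.343 to 0.399 kb, so short peaks are not particular to HOX. Whether the mark continues between listed peaks was not tested. Covered bases made up 3.24 to 5.59% of cluster sequence in the WT libraries, against 1.26 to 2.16% of the 100 kb to each side and 0.355 to 0.623% of the genome, so the clusters stood 7.79 to 9.20 times above the genome. HOX peaks were not tall. Their median fold enrichment over local background was 2.95 to 3.47 in the 6 WT libraries, against 4.09 to 4.71 over all peaks of the same libraries.

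By gene number the means lay close together, and no order along the clusters was tested. The mean covered length per window over the 6 WT mESC libraries was 0.482 kb for the 11 genes numbered 1 to 4, 0.452 kb for the 11 numbered 5 to 8 and 0.511 kb for the 16 numbered 9 to 13. Single genes spread more widely. The window of Hoxc10, a posterior gene, held 1.32, 0.793 and 1.30 kb in untransfected WT cells, and Hoxb1, a hindbrain gene at the end of its cluster, 0.907, 0.989 and 1.74 kb. Hoxb9 and Hoxc9 were each listed at 0 in 2 of those libraries and in all 12 siRNA-treated libraries. The windows of Hoxc5 and Hoxc10 held the same covered length in all 18 mESC libraries, as did those of Hoxd3 and Hoxd4. The annotated 5′ end lies 46.4 kb from that of the principal transcript for Hoxc5, 15.5 kb for Hoxc4, 11.3 kb for Hoxc6 and 10.1 kb for Hoxd4. The windows of Hoxa3 and Hoxa6 overlap and held the same covered length in all 12 siRNA-treated mESC libraries. Neighbouring windows are not independent and the cluster totals count each base once.

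**Figure D1:**
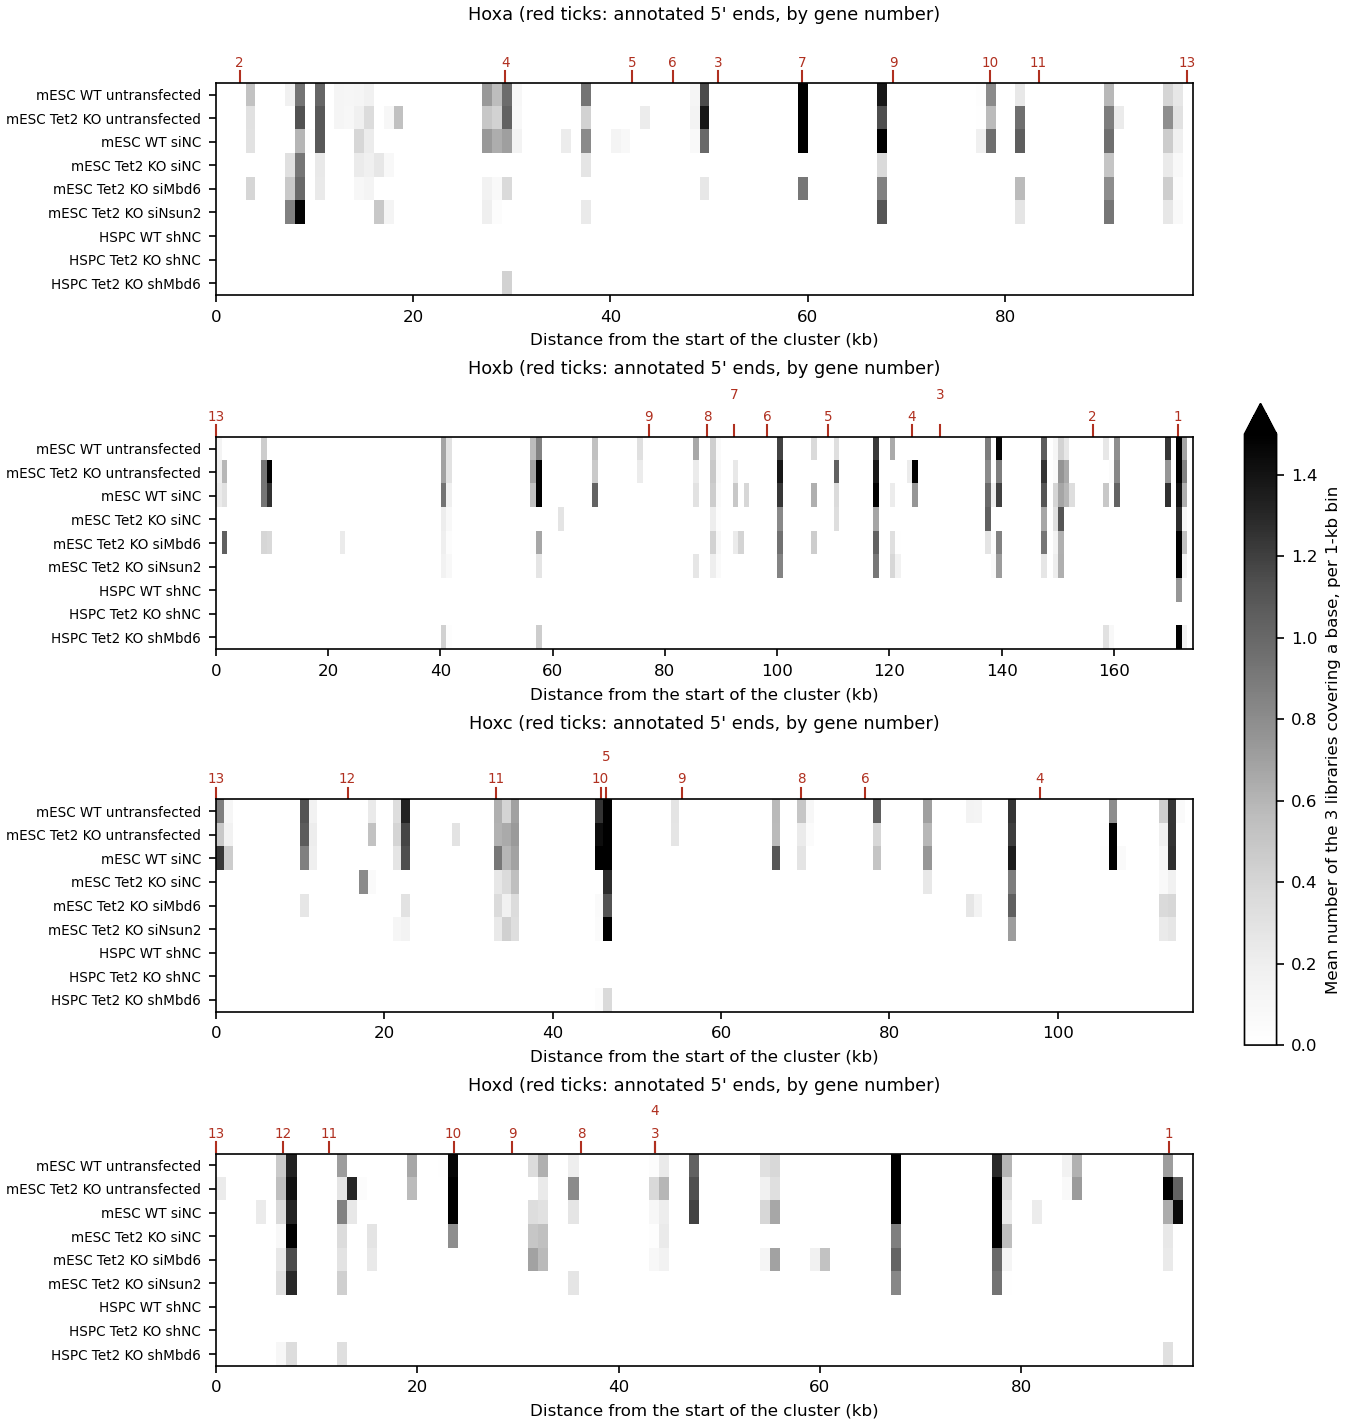
H2AK119ub along the 4 mouse clusters (distance from the start of the cluster in kb, left to right) in each mESC and HSPC group (rows). Grey gives the mean number of a group's 3 libraries that cover a base, per 1-kb bin, with values above 1.5 drawn black, and red ticks mark annotated 5′ ends by gene number. The same bins recur in the 3 upper rows, the siRNA-treated KO rows keep some of them, and HSPC rows are nearly empty outside Hoxb1.

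Loss of TET2 alone, in untransfected mESCs, was followed by no difference in HOX coverage that the test could separate. The comparison asks what the mark looks like at steady state without TET2. Covered length over the 4 clusters was 15.7, 22.2 and 22.5 kb in WT and 19.0, 25.9 and 25.7 kb in KO libraries, and the groups overlapped. The means were 20.1 ± 3.83 kb (SD, n = 3) and 23.5 ± 3.94 kb, a difference of 3.41 kb (exact two-sided permutation test, p = 0.4, where the smallest p that 3 against 3 allows is 0.1). Between libraries of the same replicate number KO was higher by 3.29, 3.72 and 3.22 kb, and total covered sequence by 1.89, 1.5 and 0.654 Mb. Replicate 1 was lowest in both groups, and the unpaired test counts that as spread. The replicate numbers were not shown to pair the samples. As a share of all covered sequence the clusters took 0.149% ± 0.0123 in WT and 0.157% ± 0.00648 in KO libraries (exact permutation p = 0.4). The share was not free of the total, since in both groups it was highest in the library with the least covered sequence (0.162% of 9.67 Mb in WT and 0.164% of 11.6 Mb in KO) and lowest in the one with the most (0.139% of 16.2 Mb and 0.152% of 16.9 Mb). Hoxb alone had a share that did not overlap, 0.0358 to 0.0450% in WT and 0.0469 to 0.0528% in KO libraries (exact permutation p = 0.1).

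The members that stood furthest apart between untransfected WT and KO cells were all higher in KO. The window of Hoxb3, an anterior hindbrain gene, was listed at 0 in all 3 WT libraries and held 0.555, 0.459 and 0.515 kb in KO (limma adjusted p = 0.135). Its neighbour Hoxb4 held 0, 0.262 and 0.39 kb in WT and 0.578, 0.6 and 0.599 kb in KO (limma adjusted p = 0.562). These windows share a peak at an exon of Hoxb4, close to the start of that gene, and in each of the 5 mESC libraries with any coverage in the Hoxb3 window all of it lay within the Hoxb4 window too. The values under Hoxb3 are therefore the part of the peak at Hoxb4 that lies in the Hoxb3 window, not a second peak. That peak was covered in 3 KO and 0 WT untransfected libraries. The WT values of Hoxb4 come from another stretch, upstream of its start, covered in 2 WT and 0 KO untransfected libraries. The higher value of Hoxb4 in KO is thus a change of stretch, not 1 peak that grew. Hoxd1, at the opposite end of its cluster from Hoxd13, held 0, 0.378 and 0.336 kb in WT and 0.858, 0.893 and 0.825 kb in KO (limma adjusted p = 0.288). In these 3 windows the groups did not overlap, but none passed the test.

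Of 36 HOX windows tested in untransfected cells, limma called 0 in either direction, against 0.0234% of all 12820 windows. At an unadjusted p under 0.05 there were 6 HOX windows and 710 windows in all, and the groups did not overlap in 6 of 36 HOX windows, KO being higher in each, against 8.09% of all windows not overlapping with KO higher and 2.8% with KO lower. The median difference was 0.0815 kb over the HOX windows and 0.03 kb over all. On a log2 scale 1 HOX window was called, that of Hoxb3, whose bases are part of the peak at Hoxb4. Among untransfected libraries this window had peaks in the 3 KO libraries alone. A test required 3 covered libraries, so it entered only through the group where it is high, and the call cannot support a difference. The leukaemia-linked genes Hoxa9 (0.460 ± 0.0564 kb in WT, 0.380 ± 0.0679 kb in KO) and Hoxa10 (0.360 ± 0.140 and 0.514 ± 0.154 kb) and the posterior genes Hoxb13 (0.646 ± 0.294 and 0.825 ± 0.417 kb), Hoxc10 (1.14 ± 0.299 and 1.24 ± 0.471 kb) and Hoxd13 (0.489 ± 0.109 and 0.542 ± 0.162 kb) had limma adjusted p from 0.957 to 0.979.

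In siNC-treated mESCs the HOX clusters of KO cells held far less covered sequence than those of WT cells. The 3 WT libraries held 16.3, 27.1 and 26.3 kb and the 3 KO libraries 3.49, 10.4 and 9.23 kb, so that the highest KO library lay below the lowest WT library. The means were 23.3 ± 6.01 kb and 7.70 ± 3.69 kb, a 3.02-fold difference (exact permutation p = 0.1, the smallest possible). All covered sequence of the same libraries differed by more, 14.4 ± 3.79 Mb in WT and 3.47 ± 1.43 Mb in KO, or 4.14-fold (exact permutation p = 0.1). Drosophila spike-in peaks numbered 47 to 71 in these WT and 47 to 88 in these KO libraries.

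**Figure D2:**
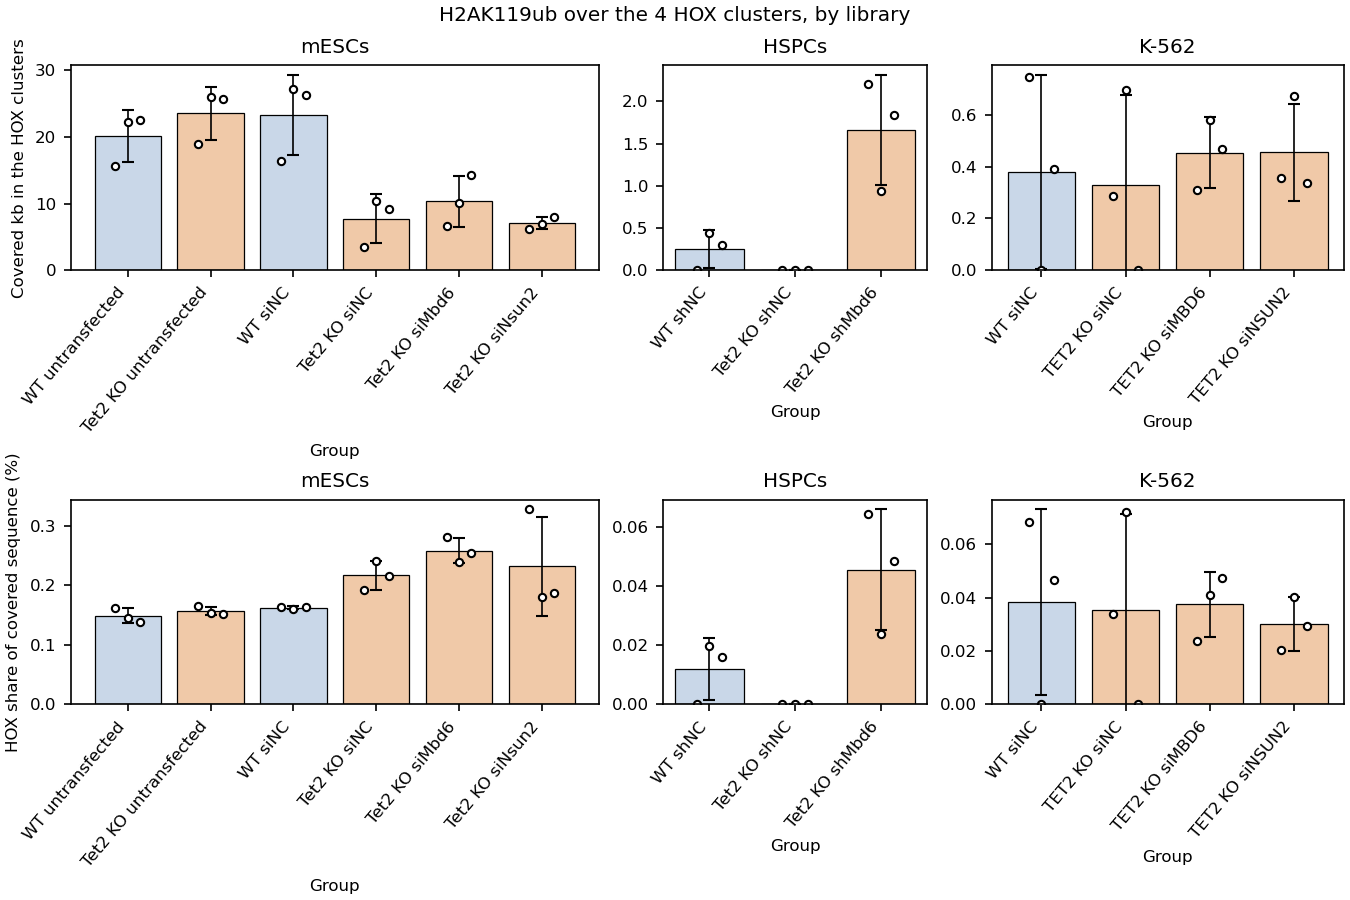
Covered length over the 4 HOX clusters (upper row, kb) and the share of each library's covered sequence that lies in them (lower row, %), by group. Bars are means (blue for WT, orange for KO cells), whiskers SD over 3 libraries, cut off at 0, and open circles single libraries. In siNC mESCs the 3 KO points lie below the WT points in the upper row and above them in the lower row.

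The clusters took a larger share of what was left, and after scaling every library to the same covered length the difference turned to 3.41 kb higher in KO cells. HOX sequence made up 0.163, 0.160 and 0.164% of covered sequence in WT and 0.192, 0.241 and 0.216% in KO siNC libraries, without overlap (means 0.162% ± 0.00214 and 0.216% ± 0.0244, exact permutation p = 0.1). Total covered sequence was 10.0 to 16.98 Mb in WT and 1.82 to 4.30 Mb in KO siNC libraries, and the part of the total in the share was not tested. When peaks of −log10 q under 5 were left out, the sign of this difference turned (−0.00502 percentage points, exact permutation p = 0.8). The median −log10 q of HOX peaks was 3.05 to 3.65 in the KO siNC libraries.

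With all listed peaks, most of the gain in share lay in Hoxd, 0.0415 of 0.0541 percentage points. Its covered length was 3.43, 5.96 and 4.60 kb in WT and 1.43, 3.20 and 2.96 kb in KO siNC cells, a 1.84-fold difference, against 3.94-fold for Hoxa, 3.31-fold for Hoxb and 3.77-fold for Hoxc. Groups did not overlap in any of the 4 clusters (exact permutation p = 0.1 each). The share of covered sequence in Hoxd was 0.0286 to 0.0351% in WT and 0.0692 to 0.0788% in KO libraries, 2.27 times higher and without overlap (exact permutation p = 0.1). The shares of Hoxa (0.0335% and 0.0347%, p = 1), Hoxb (0.0547% and 0.0687%, p = 0.2) and Hoxc (0.0413% and 0.0389%, p = 1) overlapped in the same exact permutation test. The lead of Hoxd depended on which peaks were counted. With only the strongest peaks down to equal covered length, KO was higher by 0.8653 kb in Hoxb and 0.6727 kb in Hoxd. With peaks of −log10 q of at least 5, Hoxd held 0.369, 0.446 and 1.084 kb in WT and 0, 0.284 and 0 kb in KO libraries. Whether the clusters differed from each other in this change was not tested.

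By gene, most Hoxa windows were at 0 in KO siNC cells and most Hoxd windows were not. In KO siNC libraries 7 of 10 Hoxa genes, 4 of 10 Hoxb genes and 3 of 9 Hoxc genes were listed at 0 in all 3 libraries, and 0 of 9 Hoxd genes. Windows covered in at least 2 of 3 KO libraries numbered 13 of 38, namely 0 in Hoxa, 2 in Hoxb, 5 in Hoxc and 6 in Hoxd, or 34.2% of HOX windows against 11.97% of all. Hoxd12, which with Hoxd11 and Hoxd13 shapes the digits, held 0.746, 0.680 and 0.471 kb in WT and 0.593, 0.552 and 0.474 kb in KO cells. Hoxd11 held 1.28, 1.03 and 0.471 kb in WT and 0.593, 0.836 and 0.822 kb in KO cells. The exon of Hoxd12 and the intron of Hoxb6 printed above were covered in every one of these libraries.

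The HOX windows called lower in KO siNC cells were led by Hoxc13, a gene of hair and nail formation, which held 0.923, 0.996 and 1.02 kb in WT and 0, 0 and 0.247 kb in KO (difference −0.90 ± 0.084 kb (SE), limma adjusted p = 1e-05). Hoxb2, active in the hindbrain, held 0.423, 0.858 and 1.15 kb in WT and was listed at 0 in all KO libraries (−0.81 ± 0.14 kb, limma adjusted p = 0.00061). Hoxc8, of the thoracic region, held 0.330, 0.400 and 0.652 kb in WT and 0 in KO (−0.46 ± 0.068 kb, limma adjusted p = 0.00022). In all 3 the WT and KO libraries stood fully apart. Hoxb2 and Hoxc8 had peaks in no siRNA-treated library outside the 3 of WT siNC. A test required peaks in 3 libraries, so these 2 entered it only through the group where they are high. Their calls cannot support a difference.

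The Hoxa genes went with them. Hoxa10 held 0.554, 0.921 and 0.715 kb in WT siNC cells and was listed at 0 in the 3 KO libraries (limma adjusted p = 0.00031). Hoxa7, a gene of the trunk, held 0.683, 0.645 and 0.682 kb in WT and 0 in KO (limma adjusted p = 0.00028). It had peaks in fewer than 3 siRNA-treated KO libraries, so it needed the WT libraries, where it is high, to be tested. Its call cannot support a difference. Hoxa4 held 0.449, 1.09 and 0.680 kb in WT and 0 in KO (limma adjusted p = 0.0018). Hoxa9, which marks self-renewing progenitors and many leukaemias, held 0.526, 0.480 and 0.503 kb in WT and 0, 0 and 0.364 kb in KO, and also passed (limma adjusted p = 0.026). That call was fragile. Hoxa9 no longer passed after scaling to equal covered length, with only the strongest peaks down to equal covered length, or on a log2 scale. Nor did it pass when WT replicate 1, 2 or 3 or KO replicate 1 or 2 was left out. The groups did not overlap in these 4 windows, nor did they, with KO lower, in 73.6% of all windows (0.307% with KO higher).

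Of the other members followed in every comparison, Hoxc10 was called lower although its groups overlapped (0.713, 1.42 and 1.61 kb in WT and 0, 0.740 and 0.543 kb in KO, limma adjusted p = 0.036). Hoxb13 held 0.733, 0.464 and 0.682 kb in WT and 0, 0.339 and 0 kb in KO and just missed the threshold (limma adjusted p = 0.056). Hoxb4 (0, 0.442 and 0.526 kb against 0 in KO, limma adjusted p = 0.12) and Hoxd13 (0.224, 0.431 and 0.547 kb against 0.280, 0 and 0.452 kb, limma adjusted p = 0.33) did not pass.

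In all, limma called 19 of 33 HOX windows lower (57.6%) and 0 higher in KO siNC cells, against 71.9% lower and 0.214% higher of 10756 windows, so the share called at HOX genes lay below that of all windows. The 19 windows hold 16 different sets of values, since Hoxa3 and Hoxa6, Hoxc5 and Hoxc10, and Hoxd3 and Hoxd4 count the same bases under both names. Called windows were 8 of 9 tested in Hoxa, 2 of 8 in Hoxb, 5 of 7 in Hoxc and 4 of 9 in Hoxd. The median difference was −0.36 kb over HOX windows and −0.42 kb over all. After scaling every library to the same covered length, 2 HOX windows remained lower (Hoxb2 and Hoxc8) and 1 was higher (Hoxc11), against 35.8% lower and 2.64% higher of all windows, with medians of −0.02 kb over HOX and −0.14 kb over all. The count of 19 fell to 6 without WT replicate 3, to 10 without WT replicate 2 and to 12 without KO replicate 1. Windows listed at 0 throughout a group lower the estimate of the spread, so their p may be too small. Hoxb2 and Hoxc8 entered the test only through the WT libraries, also after scaling, so those calls cannot support a difference. The called windows of Hoxa3, Hoxa5, Hoxa6, Hoxa7, Hoxd1, Hoxd3, Hoxd4 and Hoxd10 had peaks in fewer than 3 siRNA-treated KO libraries. They likewise needed the WT libraries to be tested, so their calls cannot support a difference either.

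**Figure D3:**
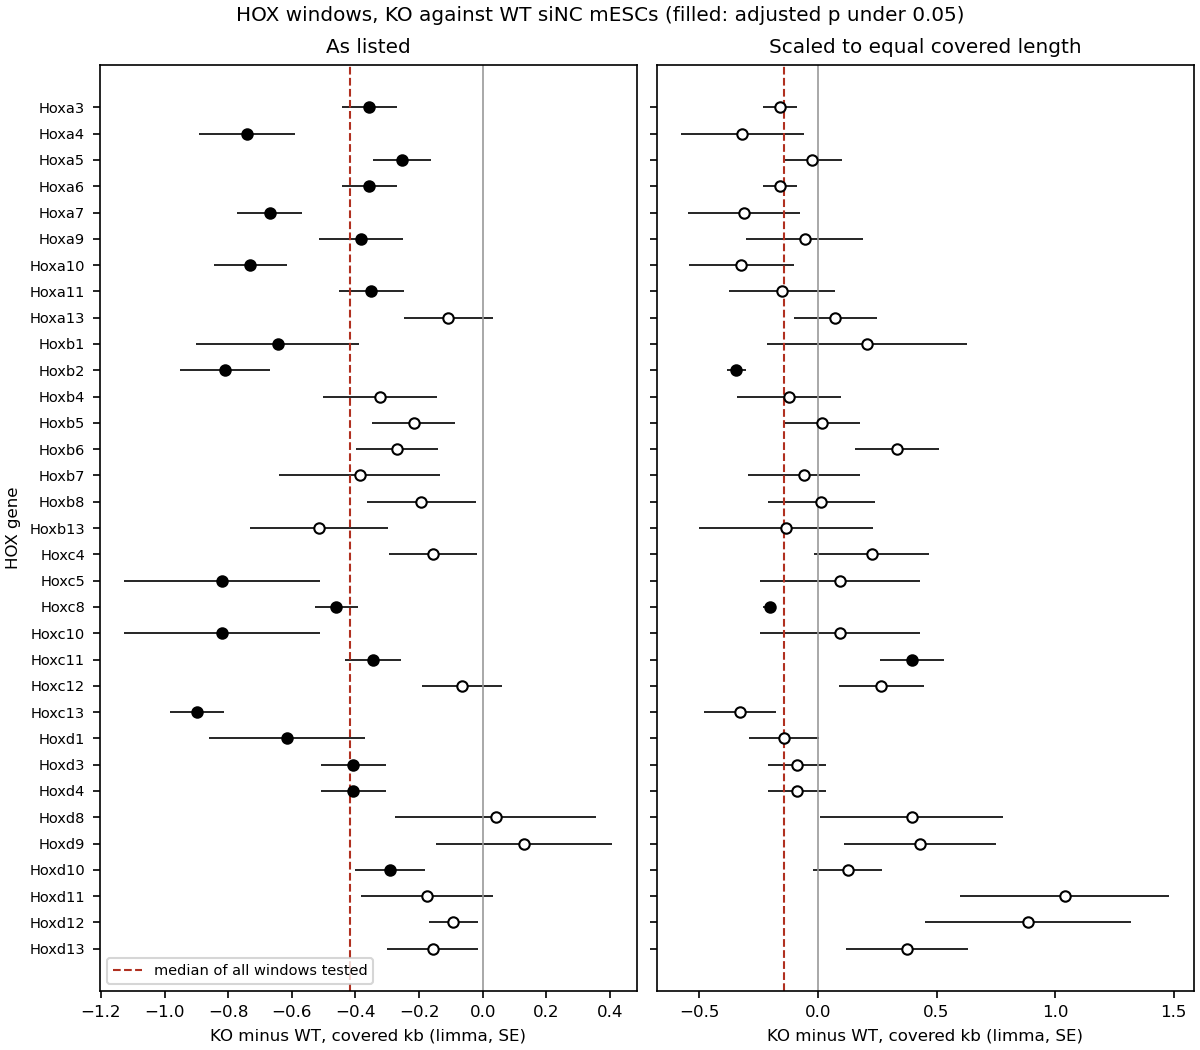
KO minus WT covered kb in the 33 HOX windows tested in siNC mESCs (x axis, points with SE from limma), as listed (left) and after scaling each library to equal covered length (right). Filled points have an adjusted p under 0.05 and the dashed line is the median of all windows tested. As listed 19 points are filled and lie left of 0, and scaled 3 are filled, with Hoxd8 to Hoxd13 to the right of 0.

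The effect of TET2 loss on HOX covered length differed between untransfected and siNC mESCs by 18.96 kb (+3.41 kb against −15.6 kb, exact permutation of labels within each comparison, p = 0.02, adjusted p = 0.06 over 6 such differences). The difference of effects did not hold after adjustment. The untransfected and siNC cells are separate experiments, so transfection and any other difference between them cannot be told apart.

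Knockdown of Mbd6 in KO mESCs, which asks whether the mark returns when this BAP1 partner is depleted, gave HOX clusters a mean covered length above that of KO siNC cells but within the spread. The siMbd6 libraries held 6.62, 10.1 and 14.3 kb against 3.49, 10.4 and 9.23 kb with siNC (means 10.3 ± 3.85 and 7.70 ± 3.69 kb, exact permutation p = 0.5). Windows covered in at least 2 of 3 libraries numbered 21 of 38 (55.3%, against 16.2% of all windows) where siNC had 13, with 6 in Hoxa, 5 in Hoxb, 5 in Hoxc and 5 in Hoxd. The 6 Hoxa windows stand beside 0 with siNC. Among these, the windows of Hoxa10 and Hoxa11 overlap and held the same covered length in every siMbd6 library. Counted only from 0.5 kb, covered HOX windows numbered 3 with siMbd6 (3.94% of all windows) and 5 with siNC (3.00%).

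With all listed peaks, the share of Hoxa was higher and that of Hoxd lower with siMbd6 than with siNC. Whether the clusters differed from each other was not tested. Hoxa took 0.0493 to 0.0732% of covered sequence with siMbd6 and 0.0287 to 0.0435% with siNC, without overlap (1.69 times, exact permutation p = 0.1). Hoxd moved the other way, with 0.0468 to 0.06919% and 0.06922 to 0.0788%, ranges that just failed to overlap (exact permutation p = 0.1). In covered length the differences were 1.045 kb in Hoxa and −0.092 kb in Hoxd. Both turned in sign with peaks of −log10 q of at least 5, to −0.08133 and 0.3873 kb. That of Hoxd also ranged from −0.641 to 0.5755 kb with each library left out in turn. The 4 clusters together took 0.258% ± 0.0212 with siMbd6 and 0.216% ± 0.0244 with siNC (exact permutation p = 0.2).

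By gene, Hoxa7 held 0.450, 0 and 0.461 kb with siMbd6 and 0 in the 3 siNC libraries (limma adjusted p = 1). Hoxc13 held 0.286, 0.295 and 0.325 kb against 0, 0 and 0.247 kb, and its groups did not overlap (limma adjusted p = 1), as in 2.29% of all windows with siMbd6 higher. Hoxd10 went the other way, from 0, 0.330 and 0.464 kb to 0 in all 3 siMbd6 libraries (limma adjusted p = 1). These 3 had the largest limma statistics of the 33 members tested.

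Of 33 HOX windows, limma called 0 in either direction after Mbd6 knockdown, against 0.177% of 10756 windows, with 3 HOX windows and 460 windows in all at an unadjusted p under 0.05. Hoxa9 held 0.402, 0 and 0.459 kb with siMbd6, Hoxa10 0, 0.275 and 0.297 kb, Hoxb13 0, 0.979 and 0.479 kb and Hoxd13 0.270, 0.404 and 0.443 kb. Hoxb4 was covered in 1 siMbd6 library (0.342 kb) and Hoxc10 held 0, 0.380 and 0.803 kb. None of these 6 stood apart from siNC. Hoxb2, Hoxc6, Hoxc8, Hoxb3, Hoxb9 and Hoxc9 were listed at 0 in all libraries of both groups. Without siMbd6 replicate 2, 1 HOX window was called higher.

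**Figure D4:**
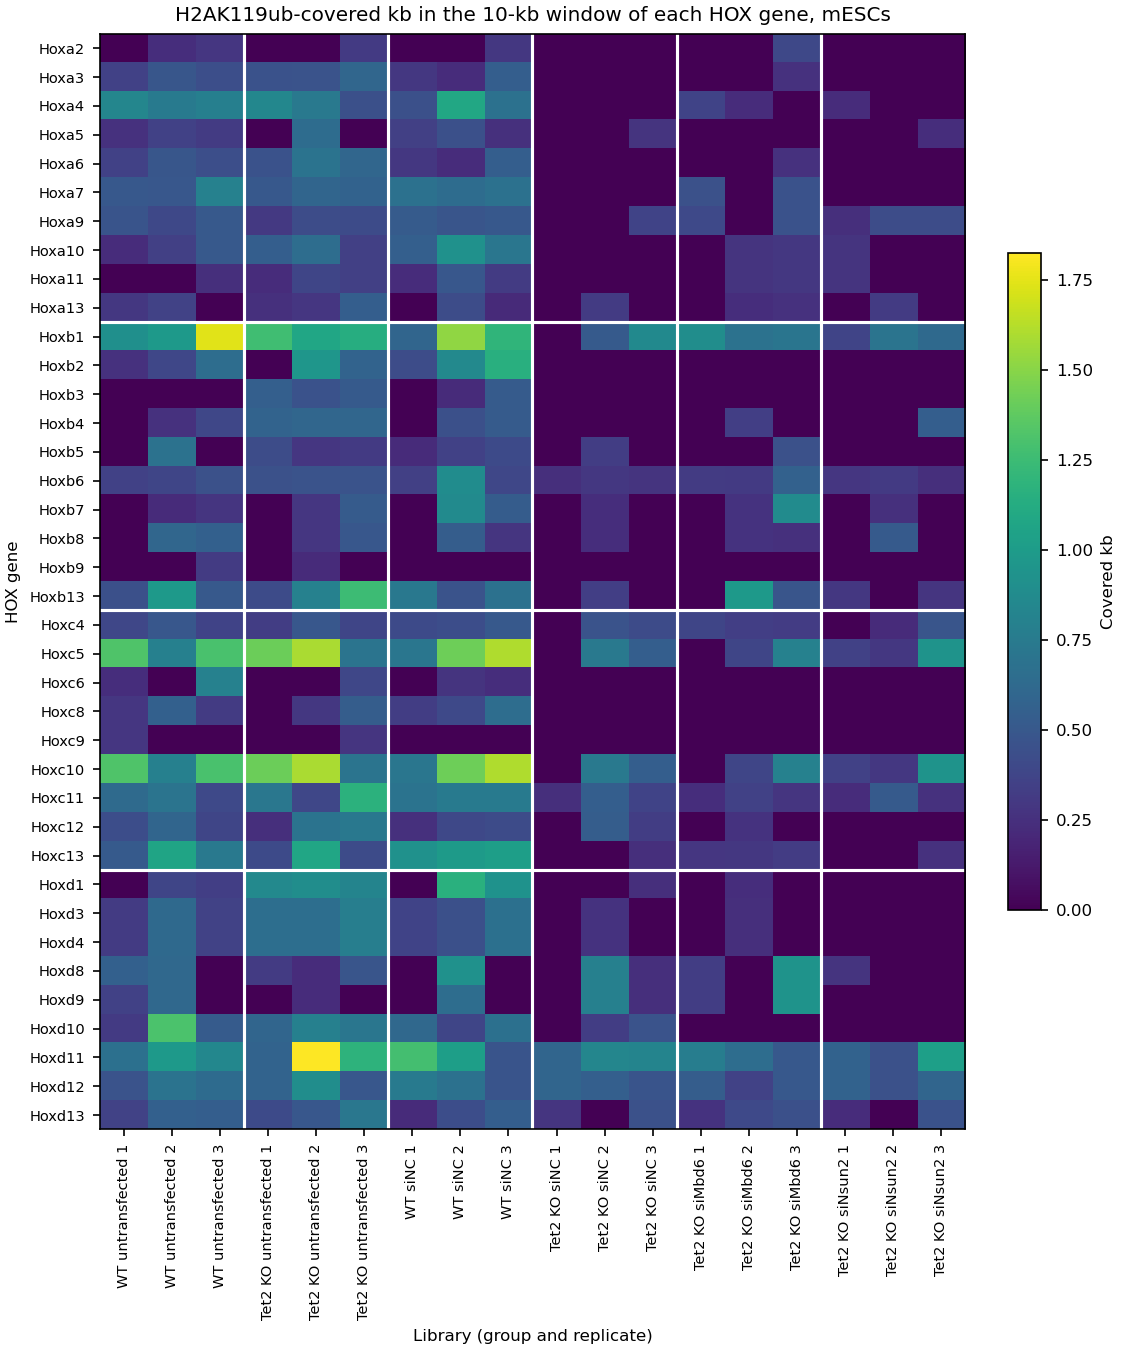
Covered kb in the 10-kb window of each of the 38 HOX genes (rows, by cluster) in the 18 mESC libraries (columns, 3 per group, white lines between groups and clusters). Dark cells are 0. The 9 columns of untransfected and WT siNC libraries are mostly filled, whereas the 9 siRNA-treated KO columns keep Hoxb6, Hoxc11, Hoxd11 and Hoxd12 in every library.

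Knockdown of Nsun2 in KO mESCs, which targets an enzyme that places the RNA methyl mark, left the clusters at 6.22, 6.95 and 7.97 kb (7.04 ± 0.877 kb, exact permutation p = 0.9 against siNC). The HOX share was 0.232% ± 0.0829 (exact permutation p = 1), with 1 library at 0.327%. Hoxa again took a larger share than with siNC, 0.0516 to 0.0876% against 0.0287 to 0.0435% (exact permutation p = 0.1). Windows covered in at least 2 of 3 libraries numbered 11 of 38 (28.9%, against 10.97% of all), with 1 in Hoxa, 3 in Hoxb, 4 in Hoxc and 3 in Hoxd.

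Limma called 0 of 33 HOX windows after Nsun2 knockdown, against 0.0186% of all windows, with 2 HOX windows and 267 windows in all at an unadjusted p under 0.05. Those 2 were Hoxd10 (0 in all siNsun2 libraries) and Hoxc12, which went from 0, 0.536 and 0.329 kb to 0 (limma adjusted p = 1 for both). Hoxa9 held 0.248, 0.424 and 0.427 kb against 0, 0 and 0.364 kb with siNC, and its groups overlapped (limma adjusted p = 1). Hoxa10 was covered in 1 siNsun2 library (0.276 kb), Hoxb4 in 1 (0.547 kb), Hoxb13 in 2 (0.297 and 0.282 kb) and Hoxd13 in 2 (0.232 and 0.462 kb), and Hoxc10 held 0.355, 0.293 and 0.940 kb. The comparisons with siMbd6 and siNsun2 share their siNC libraries with that of KO and WT.

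In HSPCs the HOX clusters were nearly free of listed H2AK119ub. The WT libraries held 0, 0.443 and 0.304 kb over the 4 clusters, all of it at Hoxb1, and the 3 KO shNC libraries were listed at 0 throughout (exact permutation p = 0.4). Windows covered in at least 2 of 3 libraries numbered 1 of 38 in WT (2.63%, against 11.9% of all windows) and 0 in KO (2.07% of all). Hoxa9, Hoxa10 and Hoxb4, the members best known in blood progenitors, were listed at 0 in all 6 libraries, as were Hoxb13, Hoxc10 and Hoxd13. Total covered length in these libraries was 2.02 ± 0.194 Mb in WT and 0.664 ± 0.0165 Mb in KO. Drosophila spike-in peaks numbered 48 to 56 in WT, 205 to 231 in KO shNC and 85 to 95 in shMbd6 libraries, and their part in the results was not tested.

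KO HSPCs with the shRNA against Mbd6 had HOX peaks in 3 of 3 libraries. They held 2.20, 0.939 and 1.84 kb over the clusters, against 0 in each shNC library (1.66 ± 0.651 kb, exact permutation p = 0.1), with 1.03 ± 0.371 kb in Hoxb and 0.360 ± 0.0660 kb in Hoxd. Total covered length was 5.62-fold higher in the same libraries (3.73 ± 0.267 Mb). The HOX share was 0.0642, 0.0238 and 0.0484%, below the share in every mESC library (0.139 to 0.327%).

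Hoxb1 was the one HOX gene marked in all 3 shMbd6 libraries, with 0.515, 0.622 and 0.659 kb against 0, 0 and 0 kb in KO shNC and 0, 0.443 and 0.304 kb in WT shNC cells. Only its window was covered in the 3 libraries that a test required. The shMbd6 libraries, where it is high, were needed to reach that number, so the call that follows cannot support an increase. It was called higher in shMbd6 than in KO shNC cells (limma adjusted p = 0.0017, with 72% of 4242 windows called higher and 0.0943% lower), also after scaling to equal covered length (0.34 kb, limma adjusted p = 0.035, with 27.9% of windows then called higher and 4.81% lower). It was not called between KO and WT (limma adjusted p = 0.12, with 22.7% of windows called, and 1 HOX window called lower, Hoxb1, without WT replicate 1). The called share of all windows is high, so the call at Hoxb1 is not a result particular to HOX.

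Beyond Hoxb1, shMbd6 peaks were scattered. Hoxd11 was covered in 2 libraries (0.436 and 0.327 kb), and Hoxa4, Hoxa13, Hoxb2, Hoxd1, Hoxd12, Hoxc5 and Hoxc10 in 1 each (0.317 to 0.643 kb). All 9 stretches of the HSPC libraries overlapped a stretch of the mESC libraries, which numbered 85. The Hoxb1 stretch overlapped one that was covered in 17 of 18 mESC libraries, and the Hoxd12 stretch overlapped one covered in 18. Hoxa9, Hoxa10, Hoxb4, Hoxb13 and Hoxd13 stayed at 0 in every HSPC library.

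**Figure D5:**
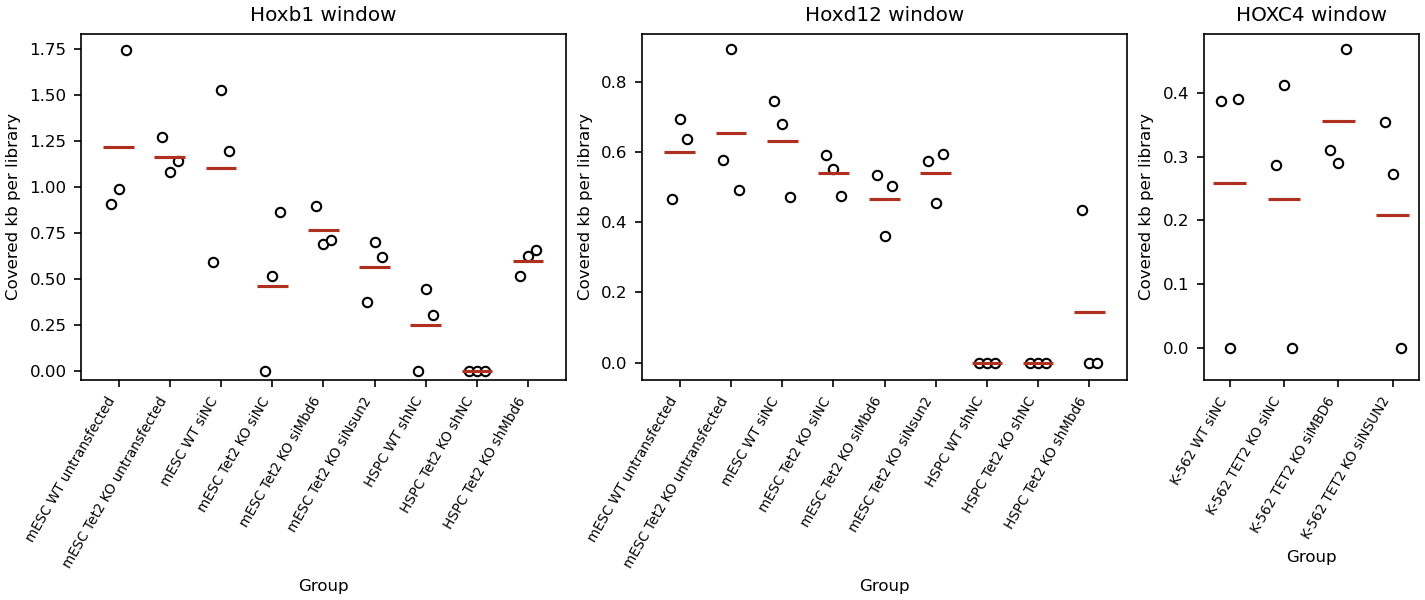
Covered kb per library in the windows of Hoxb1 and Hoxd12 in mouse cells and of HOXC4 in K-562 cells (y axes), by group. Open circles are the 3 libraries of a group and red lines their means. Hoxb1 is the one window with peaks in all 3 shMbd6 HSPC libraries, Hoxd12 is covered in all mESC libraries and HOXC4 in 9 of 12 K-562 libraries.

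The response of the clusters to TET2 loss differed between siNC mESCs and HSPCs in the HOX share (+0.0541 against −0.0119 percentage points, a difference of 0.066, exact permutation p = 0.02, adjusted p = 0.06 over 6) but not after adjustment. The share can fall no lower than 0, and in HSPCs it began at 0.0119%. For covered kb the adjusted p was 0.17. The effect of Mbd6 knockdown in mESCs exceeded that in HSPCs by 0.968 kb, which the test did not separate from 0 (adjusted p = 0.88, exact permutation). Over the 4 experiments together TET2 loss changed HOX covered length by −3.11 kb on average (exact permutation within experiments, p = 0.157) and the HOX share by 0.0119 percentage points (p = 0.235). Without siNC mESCs both signs turned (1.04 kb and −0.00217 percentage points).

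In K-562 cells 2 HOX genes carried the mark in more than 1 library. HOXC4, whose intron is printed above, held 0.387, 0 and 0.391 kb in WT siNC, 0.287, 0.412 and 0 kb in KO siNC, 0.310, 0.290 and 0.469 kb in siMBD6 and 0.355, 0.273 and 0 kb in siNSUN2 libraries. HOXC13 was listed at 0 in WT and siMBD6 libraries and held 0.370, 0 and 0.308 kb in KO siNC and 0.298, 0.338 and 0.238 kb in siNSUN2 libraries, in its window but outside the span of the cluster. HOXD3 was covered in 1 KO siNC library (0.284 kb). In 4 libraries a peak of 0.291 to 0.399 kb lay in HOXB outside every window. HOXA9, HOXA10, HOXB4, HOXB13, HOXC10 and HOXD13 were listed at 0 in all 12 libraries.

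The K-562 groups did not separate. The clusters held 0.379 ± 0.373 kb in WT siNC, 0.328 ± 0.350 kb in KO siNC, 0.453 ± 0.136 kb in siMBD6 and 0.455 ± 0.188 kb in siNSUN2 libraries (exact permutation p = 0.8, 0.6 and 0.6 for the 3 comparisons). Limma tested HOXC4 and HOXC13 and called 0 of 2, with 0.122% of 2457 windows called for KO against WT, 0% for siMBD6 and 0% for siNSUN2. At an unadjusted p under 0.05 HOXC13 stood higher in KO than in WT and lower in siMBD6 than in KO siNC cells (limma adjusted p = 0.71 and 0.43). With peaks of −log10 q of at least 5 alone, 1 HOX window (HOXC13) was called higher in siNSUN2 than in KO siNC cells.

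No BAP1 peak was listed at the HOX genes. Of 38 HOX windows, 0 were covered in either of the 2 WT mESC libraries, and the clusters held 0 kb in both. Over all 21911 windows 52 were covered in both libraries and 231 in at least 1, and these libraries held 2013 and 2233 peaks in all. With so few peaks, BAP1 at HOX genes below the calling threshold was not detectable.

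Genes that work with or upstream of HOX were followed as a list of 26. In siNC mESCs 6 of 6 tested upstream activators were called lower in KO, where 71.9% of all windows were, so neither this count nor the calls that follow are particular to these lists. They included Cdx2, a caudal factor that switches on trunk HOX genes (1.06 ± 0.0780 kb in WT, 0.327 ± 0.121 kb in KO, limma adjusted p = 0.00026), and Cdx1 (0.578 ± 0.136 kb and 0, limma adjusted p = 1.3e-05). Kmt2a, the methyltransferase that keeps HOX genes on, went from 0.488 ± 0.0526 to 0.0807 ± 0.140 kb (limma adjusted p = 0.0045), and Dot1l, its partner in leukaemia, from 0.485 ± 0.214 kb to 0 (limma adjusted p = 0.00062). Cdx1 and Dot1l had no peak in any siRNA-treated KO library. They entered the test only through the WT siNC libraries, where they are high, so their calls cannot support a difference. Among the TALE cofactors, Pbx4 (0.573 ± 0.117 and 0.081 ± 0.140 kb, limma adjusted p = 0.0054) and Pknox1 (0.388 ± 0.00513 kb and 0, limma adjusted p = 0.0036), which bind DNA together with HOX proteins, were lower. Of 9 tested related homeobox genes 2 were lower, Evx1 and Gbx2 (0.993 ± 0.329 and 0.0993 ± 0.172 kb, limma adjusted p = 0.0016). Evx1 and Men1, another of the 6 activators, had peaks in too few siRNA-treated KO libraries to be tested without those of WT siNC. Their calls cannot support a difference either.

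In untransfected mESCs and after either knockdown in mESCs limma called 0 members of these 3 lists. In HSPCs only TALE cofactors were covered often enough to be tested. Pknox1 was lower in KO than in WT (0 against 0.382 ± 0.0740 kb, limma adjusted p = 0.0020), and Pbx3 and Pknox1 were among those higher with shMbd6 than with shNC in KO cells. Of all windows 22.7% were called in the first comparison and 72% were called higher in the second. Pknox1 reached 0.416 ± 0.03004 kb there (limma adjusted p = 0.00051). In K-562 cells 3 TALE cofactors were tested and 0 called.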

How the data were processed

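H2AK119ub and BAP1 CUT&Tag libraries were analysed from 41 deposited peak lists, 1 per library. According to the methods, chromatin was tagged together with equal amounts of Drosophila spike-in chromatin. Per the labels and submitters' processing notes, the authors used Trimmomatic 0.39, Bowtie2 2.4.1, Picard and MACS2 with the mm10 and hg38 builds, and called broad peaks at a cutoff of 0.01. Each deposited peak has a score (10 times −log10 q, truncated), a ratio (fold enrichment over local background) and −log10 p and −log10 q, all from the authors' peak calling. Spike-in scaling is not part of these lists, and read depth is not given in the sources used here, so no counting interval could be set.

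Peaks on chromosomes 1 to 19 (mouse) or 1 to 22 (human), X and Y were merged per library. Covered kb were taken over each cluster and in windows of 10 kb centred on the annotated 5′ end of each protein-coding gene (GENCODE vM21 and v44), 1 window per symbol. Covered kb were modelled per experiment in limma 3.58.1 (R 4.3.3), with all groups in 1 fit and only windows that had a peak in 3 or more libraries, with Benjamini-Hochberg adjustment over all windows and a threshold of 0.05. Single values were compared by exact two-sided permutation tests (SciPy 1.17.1). Scripts were tested on simulated data. Composition was read from the reference of the same build with bedtools 2.31.1 and samtools 1.23.1.

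The members and gene lists were chosen with earlier results of these data known. Named members were, per comparison, up to 6 called members of largest difference in each direction whose groups did not overlap (where none was called, the 3 of largest limma statistic), and Hoxa9, Hoxa10, Hoxb4, Hoxb13, Hoxc10 and Hoxd13 throughout. Others named for their coverage were chosen after their values were seen. The study calls its replicates biological, and whether they were separate cultures or animals is not given in the sources used here, so p-values measure only the spread between these libraries. Replicate numbers were not shown to pair the samples. Alternatives were other peak thresholds, windows, spans, scalings, filters, fits and each library left out. One gene of the list around HOX is not reported here.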

Additional observations from a re-analysis of the deposited data

Results flagged for a closer look

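Of 6 tests of whether an effect differed between experiments, 2 had the smallest unadjusted p, 0.02 (exact permutation of labels within each comparison), and neither held after adjustment over the 6 (adjusted p = 0.06 each). The effect of TET2 loss on HOX covered length was +3.41 kb in untransfected mESCs and −15.6 kb in siNC mESCs, a difference of 18.96 kb. The effect on the HOX share of covered sequence was +0.0541 percentage points in siNC mESCs and −0.0119 in HSPCs, a difference of 0.066. No cause was tested for either.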

How the results depend on the processing

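Of 1631 alternative values for 132 results, 1479 kept their direction and their side of the threshold (or, for counts and untested values, stayed close). The others were 100 that turned in sign, 24 that moved and 28 that crossed the threshold (18 no longer past it, 10 newly past it), and the cause was not tested. Exact tests of 3 against 3 cannot pass 0.05, so their p says nothing about stability, and depth, unknown here, decides which stretches are listed. All differences below are treated minus control, in kb unless stated.

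Scaling to equal covered length turned KO against WT in siNC mESCs to 3.412 over the clusters (Hoxa 0.07089, Hoxb 0.8775, Hoxd 2.614), with 2 windows lower and 1 higher, Hoxc10 at 0.0922 and Hoxd13 at 0.3738. In untransfected cells it gave Hoxa −0.0354, Hoxc −0.6524 and the Hoxc10 window −0.04811. For siNsun2 it gave 0.962 (Hoxb 0.412, Hoxc 0.1301), and for siNSUN2 in K-562 −0.05986, with the HOXC13 window at −0.08411. Keeping only the strongest peaks down to equal covered length gave, in siNC mESCs, 1.829 (Hoxa 0.05367, Hoxb 0.8653, Hoxc 0.2373, Hoxd 0.6727), 1 window lower and 2 higher, and Hoxd13 at 0.09333. Under it Hoxa and Hoxc in untransfected cells were −0.3343 and −0.7747, TET2 loss over 4 experiments 0.4434, Hoxd for siMbd6 0.03767 and its Hoxd13 window −0.003333, and siNsun2 1.012 (Hoxb 0.07133, Hoxc 0.3953, Hoxd 0.01767). The siNSUN2 share in K-562 was then 0.01935 percentage points.

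With peaks of −log10 q of at least 5, the siNC mESC share difference was −0.00502 percentage points, 9 windows were lower, siMbd6 gave Hoxa −0.08133 and Hoxd 0.3873, siNsun2 0.2447 (Hoxc 0.09033, Hoxd 0.1033), and 1 window was higher for siNSUN2 in K-562. With 20 kb flanks, Hoxd for siMbd6 was 0.2403. The K-562 differences were then 0.1747 for KO (HOXC 0.1997, share 0.0239 percentage points), −0.008 for siMBD6 (HOXC −0.1027, share −0.01754 percentage points) and 0.04167 in HOXC for siNSUN2. Windows of 2.5 kb put Hoxa10 at −0.082 in untransfected cells, and a log2 scale called 1 window higher there. Without siNC mESCs, TET2 loss over the experiments was 1.036 kb and −0.002165 percentage points.

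Leaving out each library in turn gave these lowest and highest values. In untransfected cells Hoxa ranged from −0.02767 to 1.085, Hoxc from −0.3912 to 0.4878, and the windows of Hoxb13 from −0.035 to 0.381, Hoxc10 from −0.07933 to 0.3657 and Hoxd13 from −0.03667 to 0.1203. In siNC mESCs 6 to 18 windows were lower. For siMbd6, Hoxc ranged from −0.6025 to 0.534, Hoxd from −0.641 to 0.5755, the Hoxc10 window from −0.2472 to 0.1638, and windows called higher from 0 to 1. For siNsun2 the clusters ranged from −2.759 to 0.6818 (Hoxb −0.6573 to 0.4347, Hoxc −0.8575 to 0.279), the share from −0.03257 to 0.04106 percentage points, and the windows of Hoxc10 from −0.1122 to 0.2578 and Hoxd13 from −0.1347 to 0.103. In HSPCs 0 to 1 windows were lower in KO. In K-562, KO against WT ranged from −0.2408 to 0.1322 (HOXC and the HOXC4 window −0.156 to 0.09017, share −0.02198 to 0.01479), siMBD6 from −0.03817 to 0.3098 (share −0.01552 to 0.02056), and siNSUN2 from −0.0365 to 0.3115 (HOXC and HOXC4 −0.1402 to 0.081, share −0.02294 to 0.01315, HOXC13 −0.04767 to 0.1373).

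Counting a window as covered only from 0.5 kb left 14, 19, 16, 5, 3 and 3 members of 38 in the 6 mESC groups. Of all windows it left 23.4, 27.7, 26.0, 3.00, 3.94 and 2.34%. It left 1 member in shMbd6 HSPCs (8.02% of all windows) and 0 elsewhere (3.36% of all windows in WT and 0.393% in KO shNC HSPCs, 0.435 to 0.650% in K-562). With replicate number as a block, 19 windows were lower in siNC mESCs, as without it, and no call changed. Correlations of same-numbered samples did not all exceed 0.1 (0.1086, 0.008392 and 0.04293 for that comparison), so the numbers were used only as names. For replicate 1 they exceeded 0.1 in every mESC comparison (0.1651, 0.1086, 0.2346 and 0.2393). Whether same-numbered libraries share a batch was not tested. No HOX window could be tested in HSPCs with peaks of −log10 q of at least 5 or with the strongest peaks, nor, for KO against WT, in a fit of only the groups compared.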
